A study of Mus musculus with 8 samples.

Results

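Expression was compared between liver tumours rich in alpha-fetoprotein (Afp) RNA and non-tumour liver, by bulk RNA sequencing in mice. The tumours were chosen by their Afp level. Of the 4 tumour libraries, those with more than 100 counts of Afp per 1000000 counts (CPM, here over the unscaled library total) were tumours 1, 2 and 4, at 842, 466 and 463 CPM. They were set against all 4 non-tumour libraries, and tumour 3, at 1.33 CPM of Afp, was left out. The comparison therefore used 7 of the 8 libraries of the series. All tissue came from male wild type C57BL/6J mice that had received an intraperitoneal injection of diethylnitrosamine (DEN), labelled day 15 with no statement of what the day counts from, and a diet named HFD + SW in the labels. SW is not spelled out in the labels, where 30 weeks appears once for the feeding and once for the interval since DEN. Tumour and non-tumour pieces thus shared strain, sex, carcinogen and diet, and no untreated liver was analysed here. Whether each piece is from its own mouse is not stated, so a p-value here measures only the spread between these samples, which may be technical.

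Tumour 2 and tumour 4 held nearly the same counts, and so did non-tumour 2, 3 and 4. Compared gene by gene, their counts gave chi-square values between 1.58 and 3.28 per degree of freedom, against 71.7 to 165 for all other pairs of libraries. Their counts were summed, so that the test had 2 tumour profiles (1 and 2/4) and 2 non-tumour profiles (1 and 2/3/4). Library totals ran from 15446690 to 21977052 counts, and 3 counts, the limit that a count of 0 allows, equal 0.136 to 0.205 CPM on the scaled library sizes used below, for counting error only. Values of the chosen tumours are listed in the order 1, 2, 4. From here on CPM values use library sizes scaled by the trimmed mean of M values (TMM), each mean ± SD is over profiles with n = 2, and tumour 3 is given for reference as the tumour the choice left out.

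Alpha-fetoprotein is the main serum protein of the fetal liver. Its gene is silenced in hepatocytes after birth, and its RNA and protein return in a share of liver cancers and in regenerating liver. DEN is a carcinogen that hepatocytes activate through cytochrome P450 enzymes, and a single dose in young male mice gives rise to liver tumours months later. Hepatocellular tumours that re-express Afp often also express other oncofetal genes, which are active in fetal liver and in tumours but low in adult liver. The tissue label was checked against hepatocyte markers, and albumin (Alb) stood at 105290 to 138470 CPM in the chosen tumours and 73080 to 83352 CPM in non-tumour liver. The 12 hepatocyte markers summed to 153120 to 191900 CPM in the chosen tumours and 117000 to 138080 CPM in non-tumour liver. Most of that sum was Alb. As a set the markers were not higher: 5 had a log2 fold change above 0 and 7 below, with a median of -0.14. With no overlap, at any size, 3 were higher and 4 lower, against 14.9% and 11.4% of all genes tested.

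Afp itself (chromosome 5, 90490737 to 90508907, GRCm38) is given as a description, since it chose the tumours. On the TMM scale it stood at 836 CPM in tumour 1, 424 CPM in tumour 2 and 425 CPM in tumour 4. Non-tumour 1 had 19.4 CPM and non-tumour 2, 3 and 4 had 4.72 to 5.07 CPM. The lowest chosen tumour thus lay 21.9-fold above the highest non-tumour library, and non-tumour 1 lay above the other non-tumour libraries.

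The question of the comparison was which other genes separate these tumours from non-tumour liver. With the near-identical libraries summed, 5 of 13989 genes passed edgeR's quasi-likelihood test at an adjusted p under 0.05, which is 0.0357% of the genes tested, and 1270 genes had an unadjusted p under 0.05. All 5 rose in the chosen tumours: Gpc3, Cpe, 5330417C22Rik, Tcf24 and Ocstamp. Because the tumours were chosen by Afp, p-values of genes that follow Afp are too small. No gene passed the adjusted threshold as lower. DESeq2 called 55 lower and limma voom 0 lower. The count moved with single libraries: without non-tumour 1, 175 genes were called higher and 54 lower, and without tumour 1, 3 were called higher and 1, the monooxygenase-like gene Moxd1, lower. Each of these fits left 1 profile in an arm, so its spread came from the other arm alone, and the lone profile was assumed to vary like it. With tumour 3 added as a further tumour profile 0 genes passed, and 451 of 13649 had an unadjusted p under 0.05.

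Gpc3 (chromosome X, 52272426 to 52613950) encodes glypican 3, a heparan sulfate proteoglycan anchored to the cell surface and an oncofetal marker of liver cancer. Its level was 191 CPM in tumour 1, 165 CPM in tumour 2 and 162 CPM in tumour 4, against 7.70 CPM in non-tumour 1, 4.39 CPM in non-tumour 2, 4.65 CPM in non-tumour 3 and 5.01 CPM in non-tumour 4. The groups did not overlap, and tumour 3, at 1.21 CPM, lay below every non-tumour library. The mean was 177 ± 18.9 CPM in the tumour profiles and 6.19 ± 2.13 CPM in the non-tumour profiles (SD, n = 2 each), a log2 fold change of 4.86 (SE 0.31, edgeR adjusted p = 0.0290).

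Cpe (chromosome 8, 64592542 to 64693054) encodes carboxypeptidase E, which trims prohormones and neuropeptides. It stood at 64.2 CPM in tumour 1, 58.0 CPM in tumour 2 and 62.5 CPM in tumour 4, the narrowest spread of the 5 genes relative to the mean. Non-tumour 1 to 4 had 2.46, 4.15, 4.86 and 3.38 CPM, and tumour 3 had 0.698 CPM. Its log2 fold change was 4.20 (SE 0.26, edgeR adjusted p = 0.0290), from means of 62.3 ± 2.82 and 3.30 ± 1.18 CPM (SD, n = 2 each).

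The remaining 3 genes were expressed at lower levels. 5330417C22Rik (chromosome 3, 108455694 to 108536536), named Elapor1 in RefSeq, encodes a membrane protein of endosomes and lysosomes. It stood at 41.9, 27.7 and 25.3 CPM in the chosen tumours, at 1.41 to 1.91 CPM in non-tumour liver and at 0.381 CPM in tumour 3 (log2 fold change 4.37, SE 0.31, edgeR adjusted p = 0.0302). Tcf24 (chromosome 1, 9960163 to 9967932) encodes a basic helix-loop-helix protein. Its values were 9.49, 10.7 and 11.4 CPM in the chosen tumours and 0.878 to 1.00 CPM in non-tumour liver, and it had no read in tumour 3, which allows up to 0.190 CPM there (log2 fold change 3.45, SE 0.25, edgeR adjusted p = 0.0302). Ocstamp (chromosome 2, 165393760 to 165400405) encodes a transmembrane protein known from the fusion of osteoclast precursors. It stood at 12.2, 16.9 and 15.1 CPM in the chosen tumours, at 1.58 to 2.19 CPM in non-tumour liver and at 0.952 CPM in tumour 3 (log2 fold change 2.96, SE 0.23, edgeR adjusted p = 0.0412). In each of these genes the lowest chosen tumour exceeded the highest non-tumour library by 5.57-fold or more, and the level in tumour 3 was below all non-tumour libraries. Per kilobase of exon, the tumour mean was 187 CPM for Afp, 65.9 for Gpc3, 23.9 for Cpe, 5.42 for 5330417C22Rik, 3.86 for Ocstamp and 2.45 for Tcf24.

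**Figure D1:**
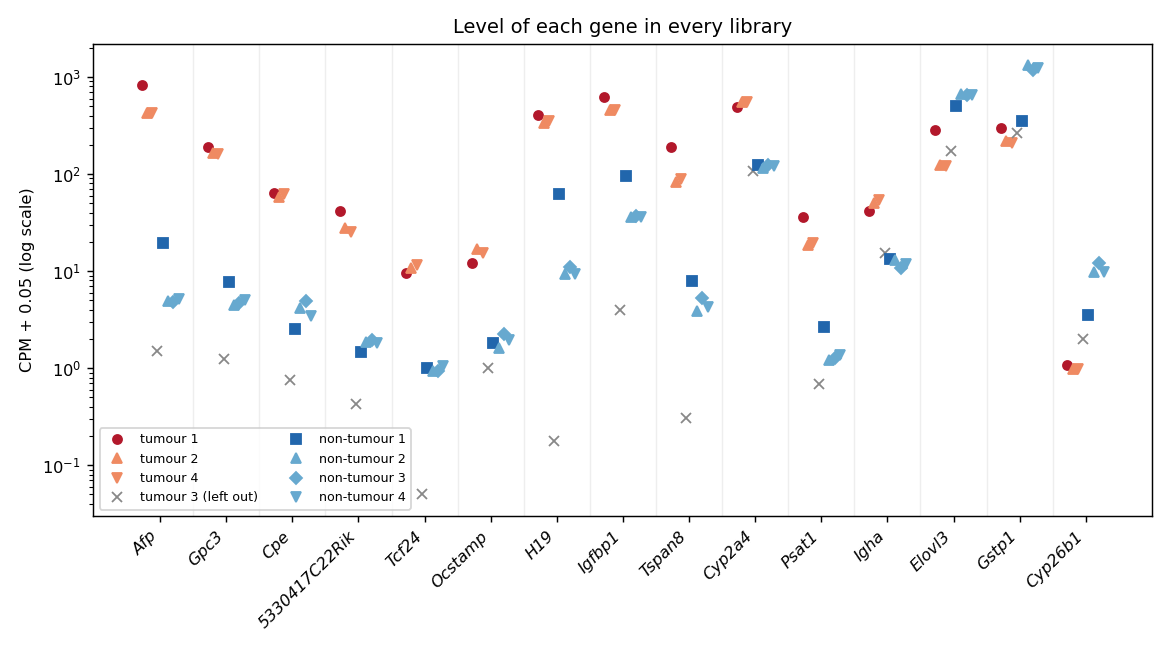
CPM (plus 0.05, log axis) of Afp, the 5 genes that passed the test and 9 further genes in each of the 8 libraries, 1 point per library. Tumours 1, 2 and 4 lie apart from all non-tumour libraries in each gene shown, which were chosen to be so, and tumour 3 (crosses) lies at or below the non-tumour level in the 5 genes that passed.

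The sequence upstream of the start site was taken for Afp, for the 5 genes that passed and for the 5 most abundant genes that were at least 2-fold higher with no overlap, to let the promoters of genes that are high together be read side by side. The RefSeq promoter table (GRCm38.p6) held 7 of these 11 genes. Cpe, Tcf24, Ocstamp and H19 are named only. The 120 bases before the RefSeq start, which lies 5 to 24 bases from the gene start used for counting, are printed 5′ to 3′ on the strand of the gene for 5 genes. Capitals mark matches, on either strand, to a TATA box (TATAAA), an HNF1 half-site (GTTAAT), a C/EBP site (TTGCNNAA) or a GC box (GGGCGG). The nuclear receptor half-site AGGTCA and the AP-1 site TGAGTCA were searched as well and had no match in the 250 bases before the start of the 7 genes.
Afp (chr5:90490594-90490713, plus strand): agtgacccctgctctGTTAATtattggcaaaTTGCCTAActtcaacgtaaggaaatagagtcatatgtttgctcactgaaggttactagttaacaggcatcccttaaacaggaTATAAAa
Gpc3 (chrX:52613975-52614094, minus strand): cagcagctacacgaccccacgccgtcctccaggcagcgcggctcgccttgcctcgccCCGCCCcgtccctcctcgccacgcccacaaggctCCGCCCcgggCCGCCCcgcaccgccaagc
5330417C22Rik (chr3:108536542-108536661, minus strand): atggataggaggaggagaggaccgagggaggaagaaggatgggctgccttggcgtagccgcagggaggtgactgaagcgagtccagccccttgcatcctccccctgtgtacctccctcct
Igfbp1 (chr11:7197667-7197786, plus strand): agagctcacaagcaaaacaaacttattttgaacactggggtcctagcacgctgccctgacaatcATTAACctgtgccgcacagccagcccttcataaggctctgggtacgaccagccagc
Cyp2a4 (chr7:26307072-26307191, plus strand): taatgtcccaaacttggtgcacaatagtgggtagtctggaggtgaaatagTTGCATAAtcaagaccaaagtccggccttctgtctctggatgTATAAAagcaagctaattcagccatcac
The Afp window held a TATA box, an HNF1 half-site and a C/EBP site, and that of Cyp2a4 a TATA box and a C/EBP site, with an HNF1 half-site further upstream. Gpc3 had 3 GC boxes and none of the other motifs, Igfbp1 had an HNF1 half-site, and 5330417C22Rik had no match. Over the 250 bases upstream of 32851 promoters in the table, 12.4% held the TATA box, 6.43% the HNF1 half-site, 9.56% the C/EBP site, 32.7% the GC box, 14% the nuclear receptor half-site and 4.46% the AP-1 site. A match describes the letters only.

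Beyond the test, genes were described by whether the 7 libraries separated. At 2-fold or more and with no overlap, 622 genes were higher in the chosen tumours (4.45% of the genes tested) and 114 were lower (0.815%). With no limit on size the shares were 14.9% (2090 genes) higher and 11.4% (1594 genes) lower, and 2831 higher and 848 lower with library size scaling. Taking the 7 libraries as separate samples, edgeR called 1031 genes higher and 766 lower, 13.6% of 13210 tested, but that count treats near-identical libraries as replicates. Without non-tumour 1 the 2-fold counts were 1177 higher and 360 lower, and without tumour 1 they were 720 and 275.

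**Figure D2:**
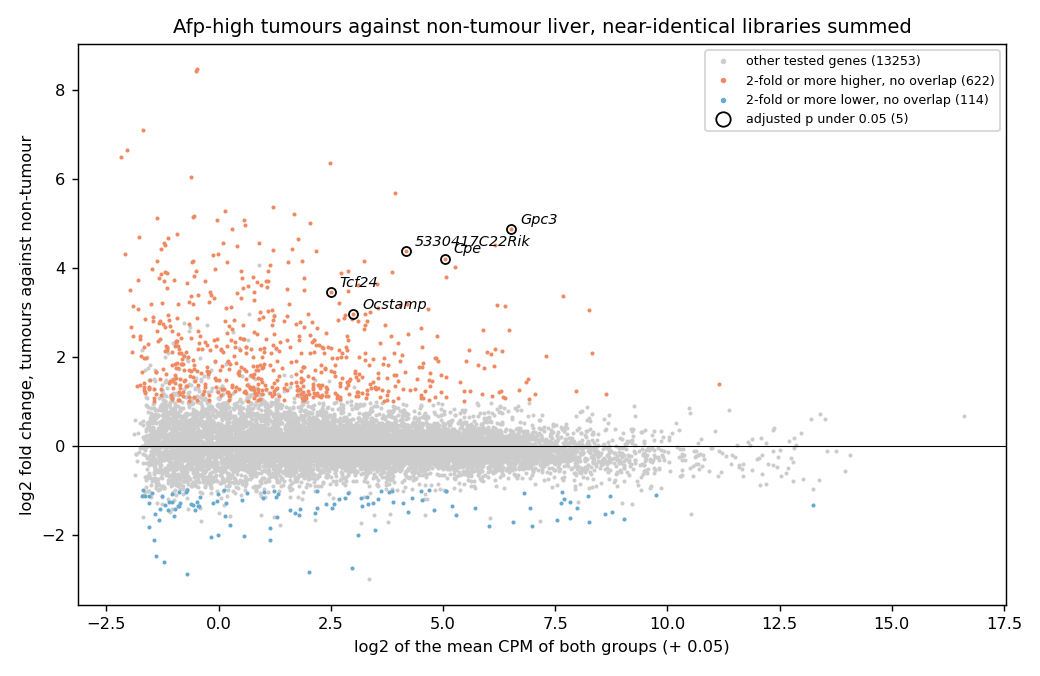
Log2 fold change of Afp-high tumours against non-tumour liver against the log2 mean CPM of both groups, 1 point per tested gene, with near-identical libraries summed. Orange points are the 622 genes at least 2-fold higher with no overlap, blue points the 114 lower ones, and circles the 5 genes with an adjusted p under 0.05.

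Both groups held an uneven member. Non-tumour 1 was the highest non-tumour library in 381 of the 622 higher genes (61.3%), against 38.3% of all genes tested, and the lowest in 78 of the 114 lower genes (68.4%), against 39.8%. It thus lay on the side of the tumours in more of these genes than over all genes. H19, an imprinted long noncoding RNA of fetal liver, is an example. It stood at 404, 336 and 350 CPM in the chosen tumours, at 63.0 CPM for non-tumour 1 and between 9.19 and 11 CPM in the other non-tumour libraries, and edgeR gave it an adjusted p of 0.311 (log2 fold change 3.37, SE 0.86). Over all genes, the log2 ratio had an SD of 0.63 between the non-tumour profiles and 0.47 between the tumour profiles. Between a single tumour profile and a single non-tumour profile the SD was 0.60 to 0.82. For the difference of the group means it was 0.58, a value that averaging over profiles makes smaller.

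Tumour 3 was not like the chosen tumours in most of the higher genes. Of the 622, it lay above all non-tumour libraries in 130 (20.9%), within their range in 281 and below all of them in 211 (33.9%). It reached the level of at least 1 chosen tumour in 46. Of the 114 lower genes it lay below all non-tumour libraries in 58 (50.9%), within their range in 46 and above them in 10 (8.77%). Tumour 3 was left out for its low Afp, so these counts are a description and not an independent check. Its place against the non-tumour range over all genes tested was not counted, so the shares cannot be read as particular to these genes. With tumour 3 added to the tumours, 126 genes were higher and 52 lower at 2-fold or more with no overlap.

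**Figure D3:**
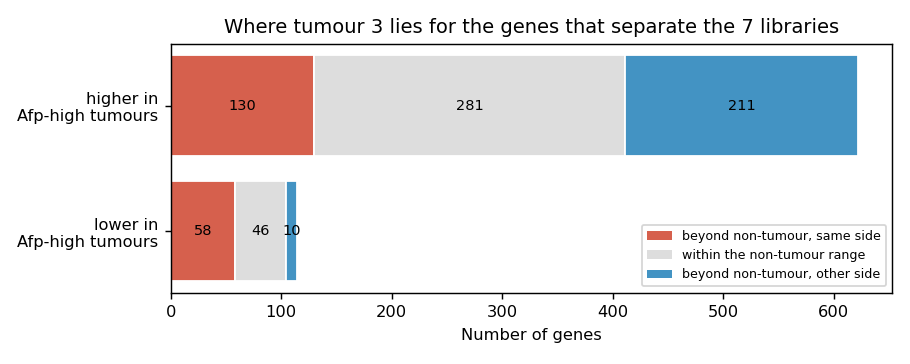
Number of genes at least 2-fold higher (622) or lower (114) with no overlap in the Afp-high tumours, split by where tumour 3 lies. It lies on the same side as the chosen tumours in 130 of the higher and 58 of the lower genes. The split over all genes tested was not counted.

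Oncofetal and liver tumour markers had the highest median of the 31 pathway lists. Without Afp, 20 of its 25 other members were tested, with a median log2 fold change of 2.33 against -0.01 over all genes tested. At 2-fold or more with no overlap 13 were higher and 0 lower, against 4.45% and 0.815% of all genes tested. Gpc3 alone passed edgeR's test. Spink1, a secreted trypsin inhibitor of pancreas and liver tumours (chromosome 18), stood at 46.2, 12.4 and 14.8 CPM in the chosen tumours and at 0.250 to 0.956 CPM in non-tumour liver. Its log2 fold change was 5.69 (SE 0.83, edgeR adjusted p = 0.136), the largest of the list. Both groups were spread: tumour 1 was above the summed tumour 2/4 profile by 1.78 on the log2 scale, and non-tumour 1 above non-tumour 2/3/4 by 1.30. Ly6d, a surface protein, stood at 93.3, 49.8 and 52.8 CPM against 1.75 to 7.29 CPM, and Bex1 at 24.8, 10.9 and 10 CPM against 0.0585 to 2.11 CPM.

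Further members of the list followed the same order. The protease inhibitor Slpi stood at 16.7, 9.88 and 10.3 CPM in the chosen tumours and 0.956 to 1.57 CPM in non-tumour liver (log2 fold change 3.47, SE 0.35, edgeR adjusted p = 0.0868). Akr1c18, an aldo-keto reductase that inactivates progesterone, stood at 199, 62.4 and 68.3 CPM against 7.96 to 21.7 CPM, and at 0.127 CPM in tumour 3. Prom1, which encodes the surface marker CD133, had 17.3, 7.58 and 7.27 CPM against 1.36 to 1.85 CPM, and Golm1, a Golgi membrane protein released into serum in liver cancer, 48.6, 28.3 and 30.3 CPM against 3.80 to 8.75 CPM. Tumour 1 was the highest library in each of these genes. The fetal genes were not all high: Igf2, Igf2bp1 and Lin28b had fewer than 20 reads over the libraries, and Dlk1 and Igf2bp3 stayed at or below 0.393 CPM in the 7 libraries. Slpi, Akr1c18, Prom1 and Golm1 were chosen after their values were seen.

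Of 17 imprinted genes tested, 6 were at least 2-fold higher with no overlap and 0 lower (all genes tested: 4.45% and 0.815%). The median was 0.36. Rian and Meg3, noncoding RNAs of one cluster on chromosome 12 whose partner Dlk1 was near 0, stood at 22, 11.3 and 11.1 CPM against 1.91 to 3.42 CPM and at 10.6, 4.01 and 3.73 CPM against 1.06 to 1.81 CPM. Tumour 3 had 0.254 CPM of Rian and 0.190 CPM of Meg3, below all non-tumour libraries. Grb10, an adaptor of insulin and growth factor receptors, stood at 8.22, 11.6 and 13.6 CPM against 1.23 to 3.82 CPM, and the zinc finger gene Peg3 at 7.73, 6.80 and 7.91 CPM against 1.71 to 2.74 CPM. Cdkn1c, Snrpn, Mest and Sgce overlapped between the groups.

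At 2-fold or more with no overlap, 15 of 22 male-biased liver genes were lower and 8 of 17 female-biased ones higher in the chosen tumours. By the same rule 0.815% of all genes tested were lower and 4.45% higher. Their sex bias in mouse liver is set by the pattern of growth hormone pulses, which acts through STAT5b. All 22 male-biased genes were tested and had a fold change below 0 on the log2 scale, as had 7187 of all 13989 genes tested. The median of the list was -1.35, and 15 members were at least 2-fold lower with no overlap, but 0 passed edgeR's test. The fatty acid elongase Elovl3 stood at 281, 123 and 121 CPM in the chosen tumours and at 507, 674, 651 and 656 CPM in non-tumour 1 to 4 (log2 fold change -1.53, SE 0.42, edgeR adjusted p = 0.342). The arachidonic acid hydroxylase gene Cyp4a12b stood at 74.3, 39.8 and 37.6 CPM against 163 to 241 CPM, and Cyp7b1, an oxysterol hydroxylase, at 186, 94.0 and 93.3 CPM against 307 to 443 CPM. Tumour 1 lay between tumour 2/4 and non-tumour liver in these genes. In Moxd1 it had 7.05 CPM where tumours 2 and 4 had 0.0489 and 0 CPM and non-tumour liver 10.7 to 15.7 CPM. Non-tumour 1, the highest library in Moxd1, lay nearer tumour 1 in Selenbp2. That gene stood at 328, 121 and 127 CPM against 434 CPM for non-tumour 1 and 815 to 871 CPM in the rest. Summed, the list stood at 20311, 12460 and 12859 CPM in the chosen tumours. Non-tumour 1 had 24881 CPM and non-tumour 2 to 4 had 42050 to 43520 CPM. Tumour 3 was on the low side of all non-tumour libraries in 15 of the 22 genes. How often it was so over all genes tested was not counted.

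Of the 17 female-biased genes tested, 8 were at least 2-fold higher with no overlap and 0 lower (all genes tested: 4.45% and 0.815%). The median was 0.87, and 0 passed edgeR's test. Cyp2a4, a steroid 15-alpha-hydroxylase, stood at 490, 558 and 547 CPM in the chosen tumours and at 125, 116, 124 and 120 CPM in non-tumour 1 to 4. Tumour 3, at 108 CPM, lay below the non-tumour libraries. Its log2 fold change of 2.09 had a small error (SE 0.20, edgeR adjusted p = 0.0743). Cyp2b9 stood at 123, 179 and 172 CPM against 8.31 to 25.7 CPM (log2 fold change 3.14, SE 0.56, edgeR adjusted p = 0.179), and the peroxisomal oxidase Hao2 at 3.66, 6.12 and 5.16 CPM against 0.205 to 1.06 CPM. Cyp3a44, another female-biased gene, overlapped between the groups: it had 5.47, 9.0 and 9.14 CPM in the tumours, 5.53 CPM for non-tumour 1 and 33.1 to 39.5 CPM in non-tumour 2 to 4. Because counting used uniquely mapped reads, levels of the Cyp2a, Cyp2b, Cyp3a, Cyp4a12, Gstp, Mup and Serpina1 copies are uncertain.

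Growth hormone and insulin-like growth factor genes gave mixed values. Igfbp1, a circulating binding protein of insulin-like growth factors that insulin represses, was among the most abundant of the higher genes. It stood at 625, 461 and 461 CPM in the chosen tumours, at 95.2 CPM for non-tumour 1 and between 35.9 and 36.5 CPM in the other non-tumour libraries, but at 3.93 CPM in tumour 3 (log2 fold change 3.05, SE 0.52, edgeR adjusted p = 0.167). Cish, a STAT5 target that damps cytokine signalling, stood at 15.0, 5.63 and 4.18 CPM against 24.1 to 32.0 CPM. Igfals, the acid-labile subunit that carries IGF1 in blood, stood at 52.9, 63.0 and 54.6 CPM against 94.1 to 124 CPM, and Igf1 at 336, 388 and 397 CPM against 556 to 573 CPM. Of the 18 tested members 2 were at least 2-fold higher with no overlap and 1 was lower (all genes tested: 4.45% and 0.815%). The median was -0.08.

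Output genes of the MAPK pathway, which relays growth factor signals through RAS and ERK, were higher more often than lower. Of 18 tested, 8 were at least 2-fold higher with no overlap and 1 lower (all genes tested: 4.45% and 0.815%). The median was 0.89, and 0 passed edgeR's test. The largest fold changes were those of scarce transcripts, the cornified envelope gene Sprr1a (0.678, 2.54 and 2.60 CPM against 0 to 0.201 CPM) and the cytokine gene Lif (1.27, 1.08 and 0.786 CPM against 0 to 0.251 CPM). Dusp5, a phosphatase that inactivates ERK, stood at 16.3, 7.98 and 8.11 CPM in the chosen tumours and at 1.09 to 3.42 CPM in non-tumour liver. Dusp6, a related phosphatase, stood at 72.3, 62.5 and 65.0 CPM against 16.1 to 40.9 CPM. Egr1, an immediate early transcription factor, stood at 89.2, 55.2 and 55.6 CPM against 17.3 to 21.7 CPM, and at 2.67 CPM in tumour 3 (log2 fold change 1.90, SE 0.27, edgeR adjusted p = 0.123). Phlda1 was the member on the other side, at 25.7, 14.7 and 13.6 CPM against 29.1 CPM for non-tumour 1 and 86.6 to 89.9 CPM in the rest. Among 15 tested receptors and ligands of the EGF family, 2 ligands were at least 2-fold higher with no overlap: Nrg1, at 7.59, 5.87 and 5.99 CPM against 0.205 to 2.26 CPM, and Areg, at 0.361 to 0.491 CPM against 0 to 0.101 CPM. The receptor Egfr overlapped between the groups (305 to 358 against 311 to 515 CPM).

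Cell cycle genes had a median of 0.73 over 28 tested members. At least 2-fold with no overlap, 5 were higher and 0 lower (all genes tested: 4.45% and 0.815%), and 0 passed edgeR's test. Mki67, the gene of the proliferation antigen Ki-67, stood at 13.7, 6.65 and 7.12 CPM in the chosen tumours and at 4.28 to 5.44 CPM in non-tumour liver, and at 1.84 CPM in tumour 3. Top2a, a topoisomerase of dividing cells, stood at 9.49, 4.94 and 5.21 CPM against 2.77 to 3.75 CPM, and Ccne1, cyclin E1, at 2.89, 1.76 and 2.16 CPM against 0.234 to 1.09 CPM. Tumour 3 lay below all non-tumour libraries in 21 of the 28 genes, but its share over all genes tested was not counted. Among 20 targets of p53, 3 were at least 2-fold higher and 0 lower, with a median of 0.45. They were Phlda3, an inhibitor of AKT, at 5.33, 2.94 and 2.51 CPM against 0.563 to 1.30 CPM, the antiproliferative gene Btg2, at 42.2, 31.9 and 34.3 CPM against 10.4 to 16.1 CPM, and the cell cycle inhibitor Cdkn1a, at 22.2, 15.5 and 16.1 CPM against 4.91 to 11.3 CPM.

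In the list of stress and unfolded protein response genes, the highest members were enzymes of serine synthesis. Psat1 stood at 35.7, 18.6 and 19.2 CPM in the chosen tumours and at 1.17 to 2.62 CPM in non-tumour liver (log2 fold change 3.90, SE 0.50, edgeR adjusted p = 0.122), and Phgdh, the first enzyme of that route, at 4.20, 2.15 and 2.51 CPM against 0.250 to 0.503 CPM. Trib3, a pseudokinase induced by ATF4, stood at 24.1, 30.6 and 30.4 CPM against 5.18 to 9.24 CPM (log2 fold change 2.04, SE 0.25, edgeR adjusted p = 0.111). Of 22 tested members 6 were at least 2-fold higher with no overlap and 0 lower (all genes tested: 4.45% and 0.815%). The median was 0.34. Slc7a11, the cystine transporter counted with the NRF2 genes and named after its values were seen, stood at 0.768, 0.930 and 1.18 CPM in the chosen tumours and at 0 to 0.0626 CPM in non-tumour liver. It was an extreme of its list. Of 26 tested NRF2 and glutathione genes, 16 had a log2 fold change below 0, and the median was -0.30. At 2-fold or more with no overlap 2 were higher and 0 lower (all genes tested: 4.45% and 0.815%).

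All 28 urea cycle and amino acid breakdown genes had a log2 fold change below 0, as had 7187 of all 13989 genes tested. The median of the list was -0.51, but 2 members were at least 2-fold lower with no overlap (0.815% of all genes tested). In edgeR's test 0 passed. Gnmt, glycine N-methyltransferase, stood at 534, 565 and 543 CPM in the chosen tumours and at 907 CPM for non-tumour 1 and 1435 to 1482 CPM in the rest. Ass1, argininosuccinate synthase, stood at 524, 586 and 580 CPM against 783 CPM for non-tumour 1 and 1279 to 1326 CPM in the rest. Non-tumour 1 thus lay between the groups in both. Cth, the other member past 2-fold, stood at 173, 195 and 208 CPM in the chosen tumours. Non-tumour 1, at 211 CPM, lay close to them, and the rest had 609 to 621 CPM. Bile acid genes had a median of -0.32 over 23 tested, and 1, Cyp7b1, was at least 2-fold lower with no overlap. Cyp8b1, which sets the share of cholic acid, stood at 208, 280 and 255 CPM against 402 to 493 CPM.

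Genes of the liver zones moved in both directions, and few differed by 2-fold or more with no overlap. Of 20 genes of the pericentral zone and Wnt signalling 0 were at least 2-fold higher or lower with no overlap, with a median of -0.31. Glul, glutamine synthetase and a marker of Wnt activity, overlapped between the groups (570 to 861 against 731 to 1069 CPM). Of 18 periportal genes 2 were higher and 1 lower (all genes tested: 4.45% and 0.815%), with a median of -0.56. With no limit on size, 5 periportal genes were higher and 7 lower with no overlap. In the pericentral and Wnt list 1 was higher and 5 lower, against 14.9% and 11.4% of all genes tested. The higher periportal genes of 2-fold or more are named next. The higher ones were the apolipoprotein gene Apoa4, at 3441, 3203 and 3166 CPM against 2080 CPM for non-tumour 1 and 425 to 434 CPM in the rest, and E-cadherin (Cdh1), at 127, 91.8 and 91.3 CPM against 35.9 to 65.1 CPM. Etnppl, a phospholyase, was lower, at 37.5, 52.8 and 49.8 CPM against 71.0 to 221 CPM.

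**Figure D4:**
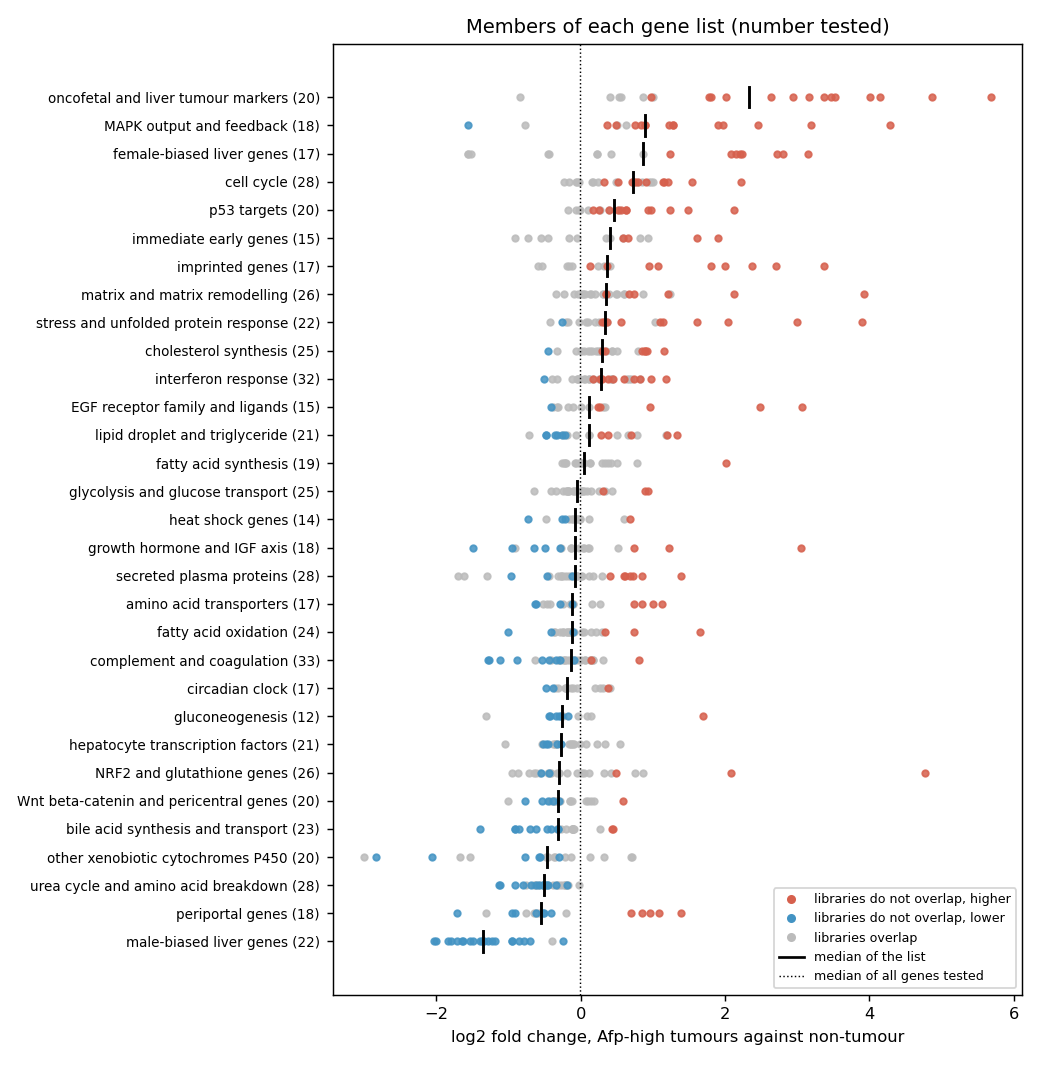
Log2 fold change of each tested member of 31 gene lists, 1 point per gene, ordered by the median of the list (black bar). The oncofetal list lies highest, at a median of 2.33, and the male-biased list lowest, at -1.35, while the dotted line marks the median of all genes tested.

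Several list medians moved by more than 1.5 times with 1 library. Without non-tumour 1 the median of the female-biased genes was 1.57, of the cell cycle genes 0.48, of the bile acid genes -0.49, of the MAPK genes 1.39, of the periportal genes -0.93, of the cholesterol genes 0.58, of the fatty acid synthesis genes 0.62, of the complement and coagulation genes -0.29 and of the growth hormone and IGF genes -0.22. Without tumour 1 it was 1.35 for the female-biased genes, -0.01 for fatty acid synthesis, 0.38 for the cell cycle, 0.16 for stress genes, -0.05 for Wnt and pericentral genes, -0.08 for bile acid genes and 0.07 for cholesterol synthesis.

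Lipid genes were mostly near the background (4.45% of all genes tested were at least 2-fold higher with no overlap, and 0.815% lower). Of 25 cholesterol synthesis genes 1 was at least 2-fold higher with no overlap, Lss, at 203, 162 and 162 CPM against 48.3 to 115 CPM, and the median was 0.29. Scd2, a stearoyl-CoA desaturase of fetal and non-liver tissue, stood at 277, 227 and 218 CPM in the chosen tumours, at 101 CPM for non-tumour 1, at 21.6 to 24.2 CPM in non-tumour 2 to 4 and at 5.77 CPM in tumour 3. It was the 1 of 19 fatty acid synthesis genes past 2-fold, and that list had a median of 0.04. Lpl, lipoprotein lipase, which adult hepatocytes express little of, stood at 116, 95 and 97.3 CPM against 42.7 to 48.7 CPM and at 13.2 CPM in tumour 3 (log2 fold change 1.20, SE 0.17, edgeR adjusted p = 0.123). Of 33 complement and coagulation genes 3 were at least 2-fold lower and 0 higher, the terminal components C6, C8b and C9, with a list median of -0.14. C8b stood at 169, 98.2 and 96.9 CPM in the chosen tumours and at 241 to 415 CPM in non-tumour liver.

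Several of the largest differences belonged to genes of other roles. Among higher genes, Tspan8, a tetraspanin of epithelia that also stands in the cholangiocyte list, stood at 189, 83.0 and 87.9 CPM in the chosen tumours, at 3.86 to 7.80 CPM in non-tumour liver and at 0.254 CPM in tumour 3 (log2 fold change 4.52, SE 0.52, edgeR adjusted p = 0.111). Alox5, the lipoxygenase that starts leukotriene synthesis, stood at 7.5, 8.17 and 8.06 CPM against 0 to 0.553 CPM (log2 fold change 5.0, SE 0.78, edgeR adjusted p = 0.142). F2rl1, a receptor cleaved by proteases, stood at 7.18, 10.1 and 9.24 CPM against 0.117 to 0.754 CPM, and Cdh17, a cadherin of intestine and fetal liver, at 9.85, 4.01 and 3.69 CPM against 0.251 to 0.563 CPM. Among lower genes, Cyp26b1, which degrades retinoic acid, stood at 1.04, 0.930 and 0.934 CPM against 3.47 CPM for non-tumour 1 and 9.70 to 12 CPM in the rest (log2 fold change -2.84, SE 0.57, edgeR adjusted p = 0.187). Gadd45g, a growth arrest gene, stood at 2.08, 1.91 and 2.06 CPM in the tumours and 2.21 CPM in non-tumour 1, against 22.2 to 26.1 CPM in non-tumour 2 to 4 and 21.0 CPM in tumour 3. The low level of Gadd45g was thus shared by non-tumour 1 and absent from tumour 3.

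Markers of other cell types were read in the same libraries, and in bulk tissue fewer cells of a type and less RNA per cell cannot be told apart. The 11 cholangiocyte markers summed to 418, 206 and 214 CPM in the chosen tumours and to 50.3 to 58.1 CPM in non-tumour liver. That sum rested on Tspan8 and on Spp1, osteopontin, at 204, 98.1 and 102 CPM against 22.4 to 29.6 CPM. The keratin genes Krt7 and Krt19 and the adhesion gene Epcam, which define bile duct cells, were at or below 2.58 CPM in each library, and Cftr had fewer than 20 reads. Krt19 stood at 2.58, 0.391 and 0.0983 CPM in the chosen tumours and at 0.188 to 0.410 CPM in non-tumour liver, so tumour 1 alone lay above the non-tumour range.

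Of the 12 B cell and plasma cell markers 3 were at least 2-fold higher with no overlap (4.45% of all genes tested): Igha, Jchain and Igkc. In that list 8 members had a log2 fold change above 0 and 4 below. The median was 0.27, and 0.82 without non-tumour 1. Igha, the heavy chain of IgA, stood at 41.5, 49.9 and 53.7 CPM in the chosen tumours and at 13.2, 12.9, 10.6 and 11.7 CPM in non-tumour 1 to 4 (log2 fold change 1.91, SE 0.17, edgeR adjusted p = 0.0688). Jchain, the joining chain of IgA and IgM, stood at 11.7 to 13.3 CPM against 3.32 to 4.91 CPM, and Igkc at 41.3 to 45.9 CPM against 18.2 to 19.8 CPM (each with an edgeR adjusted p of 0.0983). Tumour 3 had 15.5 CPM of Igha, 5.08 CPM of Jchain and 28.0 CPM of Igkc, above all non-tumour libraries and below the chosen tumours. The sum of the 12 B cell and plasma cell markers overlapped, at 254 to 264 CPM in the chosen tumours and 204 to 277 CPM in non-tumour liver. It holds Sdc1, which hepatocytes also express, at 122 to 129 CPM in the chosen tumours and 128 to 214 CPM in non-tumour liver.

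Macrophage and endothelial markers moved with 1 library. Kupffer cell markers summed to 814 CPM in non-tumour 1, against 298 to 305 CPM in non-tumour 2 to 4 and 323 to 338 CPM in the chosen tumours. Their median fold change of -0.82 turned to 0.09 without non-tumour 1. Sinusoidal endothelium markers summed to 458 CPM in non-tumour 1 and to 222 to 281 CPM in the other 6 libraries. Mesothelium markers summed to 32.3 CPM in tumour 1 and to 0.702 to 2.21 CPM in the other 6, and Upk3b, of the same list, to 11.8 CPM against at most 0.538 CPM. Without tumour 1 the median of the cholangiocyte markers was 0.62 in place of 1.40. The part of these markers in the gene differences was not tested. The medians of the oncofetal and male-biased lists were 3.00 and -1.61 without non-tumour 1, and 1.98 and -1.94 without tumour 1.

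**Figure D5:**
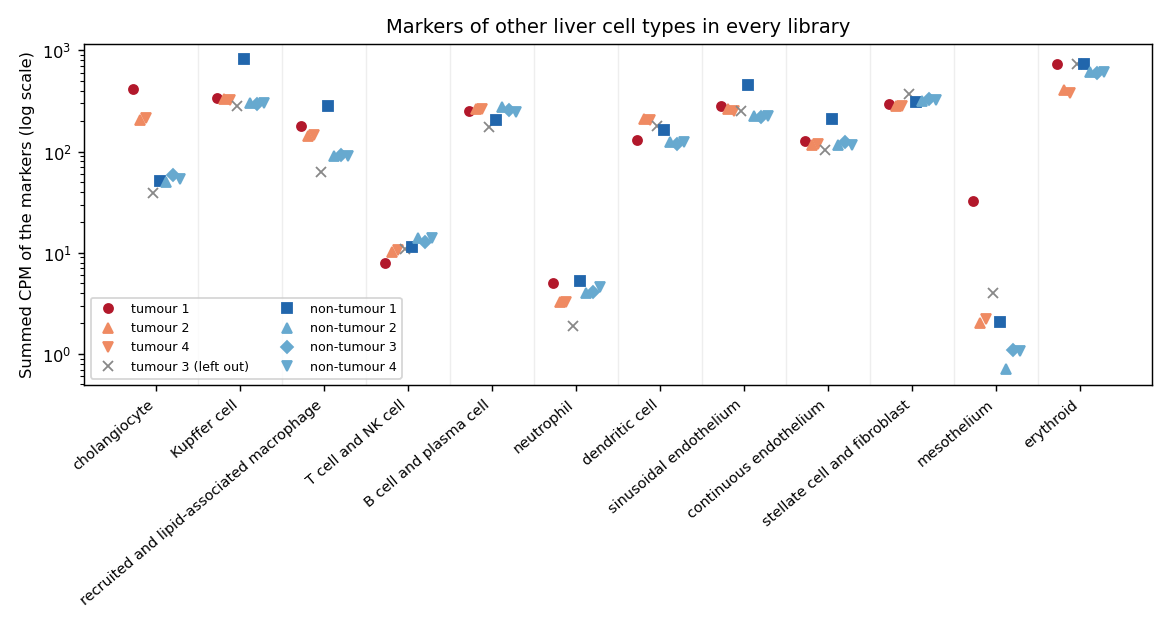
Summed CPM (log axis) of the markers of 12 other cell types in each library, 1 point per library. Non-tumour 1 is highest in Kupffer cell markers, at 814 CPM, tumour 1 in mesothelium markers, at 32.3 CPM, and the chosen tumours in cholangiocyte markers, at 206 to 418 CPM.

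The chosen tumours differed from each other as well. Between tumour 1 and tumour 2/4, 53 genes were more than 4-fold higher in tumour 1 and 27 in tumour 2/4, against 138 and 56 between non-tumour 1 and non-tumour 2/3/4. In tumour 1 the milk casein gene Csn3 stood at 20.4 CPM, against 1.08 and 1.42 CPM in tumours 2 and 4 and at most 0.302 CPM in non-tumour liver. Igfbp5, another binding protein of insulin-like growth factors, stood at 60.8 CPM in tumour 1, against 5.43 and 5.36 CPM in tumours 2 and 4. In the other direction, the acute phase gene Orm3 stood at 1.08 CPM in tumour 1 and at 7.73 and 8.06 CPM in tumours 2 and 4, and Serpinb1a, an inhibitor of neutrophil proteases, at 3.16 CPM and at 21.1 CPM in both. Of the 622 higher genes tumour 1 was the highest of the chosen tumours in 415 (66.7%), against 40.7% of all genes tested.

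The chromosomes were compared by the median over their tested genes. The median log2 difference of a chromosome from the mean of the non-tumour profiles lay between -0.06 and 0.07 in tumour 1 and between -0.05 and 0.07 in tumour 2/4. The highest median in both was that of chromosome X, at 0.07 over 415 genes, but over the 163 genes of X with at least 10 CPM in every profile it was -0.03 in tumour 1 and 0.01 in tumour 2/4.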

How the data were processed

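RNA of 8 liver pieces (4 tumours and 4 non-tumour pieces) was sequenced from poly(A) libraries made with an Illumina mRNA kit, per the labels. The deposited files hold raw read counts for 54838 genes, which the authors made with featureCounts (Subread 1.6.2, strand setting 2, exons of Ensembl release 95, GRCm38), per the file headers. STAR 2.5.0 is named in the submitters' processing notes. Reads mapping to more than 1 place were not counted.

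Groups came from the labels and from the Afp level (over 100 CPM). The members and gene lists were chosen with earlier results of these data known, and nothing here is independent of them. Libraries of a group with a chi-square per degree of freedom under 10 (over genes reaching 20 reads summed across both) were summed. Genes were tested in R 4.3.3 with edgeR 4.0.16 (TMM, filterByExpr with a minimum count of 10 and minimum total of 15, robust quasi-likelihood fit, Benjamini-Hochberg adjustment over all genes, threshold 0.05). SE was taken as the size of the log2 fold change over the square root of F. No overlap means that every library of 1 group lies beyond every library of the other. Named genes were those past the threshold, the 14 largest non-overlapping differences in each direction at a mean of at least 5 CPM in 1 group, the 5 most abundant in each direction, up to 4 members per list at 1 CPM or more, markers, and the 5 largest differences between tumour profiles in each direction. Members outside these rules, such as Akr1c18, Areg, Dusp6, Glul, Igf1, Peg3, Cyp3a44 and Slc7a11, were picked with their values in view. Alternatives used DESeq2 1.42.0, limma 3.58.1 (voom), other scalings and filters, a replicate block, and leaving out each library. The code was tested on simulated data. Gene symbols matched 54723 of 54838 IDs.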

Additional observations from a re-analysis of the deposited data

Results flagged for a closer look

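Fabp1, the fatty acid binding protein of hepatocytes, stood at 12676 CPM in tumour 3, the library that the comparison did not use. The chosen tumours had 3973 to 4223 CPM and non-tumour liver 4657 to 4886 CPM. It was flagged because the level in a library outside the comparison was more than 2-fold above each of the 7 others. It is 1 library with no replicate.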

How the results depend on the processing

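The count of 5 higher and 0 lower genes (2 against 2 profiles) depends on few libraries and on the method. It was 1031 higher and 766 lower with 7 libraries as separate samples, 64 and 1 with library size scaling, 588 and 161 with no expression filter, 285 and 55 with DESeq2, 2 higher with limma voom, 0 higher with tumour 3 added, and 24 and 32 with 8 libraries as separate samples (chosen after seeing the data). Leaving out 1 library at a time gave 3 to 175 higher and 0 to 54 lower genes, both highest without non-tumour 1, where the spread came from the tumour profiles alone. With a replicate block the counts were 166 and 6 over profiles and 423 and 198 over 7 libraries. The labels do not say that a number marks a shared mouse or batch. Deviations of same-numbered libraries had correlations of 0.16, 0.10 and 0.11 for numbers 1, 2 and 4, but 2 and 4 are near-identical in both groups, which leaves 2 distinct pairs, too few to show pairing. Over profiles, the block gave adjusted p-values (edgeR) of 0.000377 for Spink1 and Tspan8, 0.00605 for Cyp2a4 and 0.00623 for Igfbp1. The 2-fold counts with no overlap were 126 and 52 with tumour 3 added, and 609 to 1177 higher and 101 to 360 lower leaving out 1 library. RLE and upper-quartile scaling gave the same 5 genes.

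With tumour 3 added the 5 genes had an edgeR adjusted p of 0.995, and with 8 separate libraries of 0.0941 to 0.143. Limma voom kept Gpc3 and Cpe and gave the others 0.0918. Tcf24 (0.128) and Ocstamp (0.120) were lost without tumour 1. Ocstamp was lost with 1 library of each set (0.0584), a filter of 1 CPM (0.0507) and without non-tumour 2 (0.0586). With tumour 3 added the log2 fold change of Npas2 turned to -0.11 and that of Fabp1 to 0.55, and Fabp1 to 0.39 with 8 separate libraries. Of 177 genes whose fold change was recomputed, no other turned direction in the settings run.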
